A study of Mus musculus with 6 samples.

Results

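In Ribo-seq, the stretches of mRNA that ribosomes cover while translating are sequenced, and 1 such library of mouse tissue, which carries the label colon, was analysed. It is 1 of 6 libraries, each with its own tissue label (colon, kidney, small intestine, brain, heart or lung), and it was chosen by that label alone. All 6 came from untreated wild-type mice of the strain C57BL/6J at 4 weeks of age. The number of animals behind a library and their sex are not given in the labels, and no transgene or deletion is named for any group. With 1 library per label there is no replicate and no test between tissues, so every difference below is a description of these libraries, and intervals cover counting error only. The ribosome density of an mRNA is given as RPKM, the reads on its CDS divided by the CDS length and by the reads on all CDSs, which allows comparison between mRNAs of different length.

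The kidney filters plasma in the glomerulus and then works on the filtrate along the nephron. The proximal tubule takes back glucose, amino acids, phosphate and filtered proteins and makes glucose and ammonia. The thick ascending limb takes up salt without water, the distal convoluted and connecting tubules adjust calcium, magnesium and sodium, and the principal and intercalated cells of the collecting duct set the final water, salt and acid content of the urine. The colon has none of these segments and is lined by mucus-secreting goblet cells and absorptive colonocytes. The label was therefore checked against both sets of markers, and it did not match. Muc2, the main mucin of goblet cells, stood at 1.15 RPKM under the label colon and at 2486 under the label kidney. Of the 18 mRNAs of a list of colon epithelium, 15 were counted as lower in the library labelled colon than in the mean of the others, none as higher, and Cdx1, Cdx2 and Aqp8 had no reads. Other labels went against their markers too, with the colon list highest in the library labelled kidney (27242 RPKM in sum), the small intestine list in that labelled brain (60330.3) and a list of neurons and glia in that labelled small intestine (6739). Libraries are therefore named by their labels throughout, values given as "here" are those of the library labelled colon, and its mRNAs are described by the nephron segment and function for which they are known.

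The measure of difference was log2(RPKM + 1) in the library labelled colon minus the mean of log2(RPKM + 1) over the other 5 libraries, and it understates the change of mRNAs of low density. Over the 15238 mRNAs with at least 1 RPKM in at least 1 library, its median was -0.19 and its range ran from -6.49 (Rap2c) to 9.63 (Defb1). An mRNA was counted as higher at a difference of 2 or more, which 1185 mRNAs reached (7.78%), and as lower at -2 or less, which 971 reached (6.37%). A further count, free of the pseudocount and of the mean, is that of mRNAs with their highest RPKM of all 6 libraries here, which was 2337 (15.3%), and 985 of the 1185 were among them. Reads on the mRNAs counted as higher made up 33.9% of the library labelled colon and between 2.78% and 5.79% in the others. Only 32 of them had no reads in any other library. The library labelled colon had the fewest reads, 4504853 against up to 10635031, and 1180 of the 1185 rested on at least 10 reads in it. Pearson's r of log2(RPKM + 1) over the same mRNAs, which are not independent, was between 0.55 (labelled small intestine) and 0.72 (labelled heart).

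**Figure D1:**
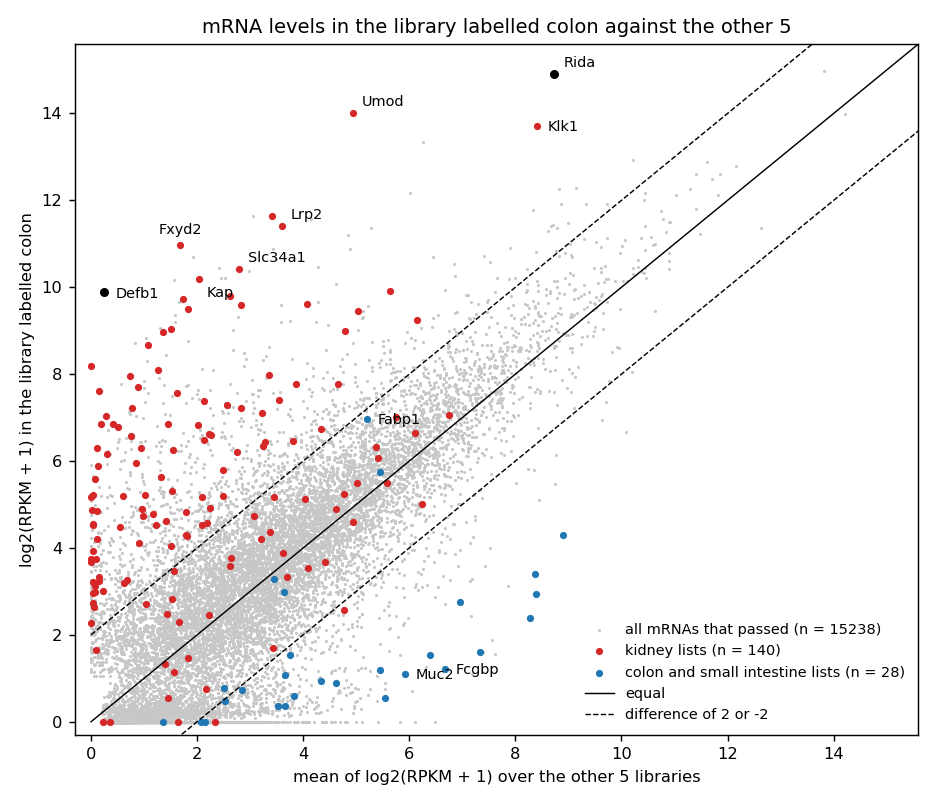
Each point is an mRNA, with the mean of log2(RPKM + 1) over the other 5 libraries on the horizontal axis and log2(RPKM + 1) in the library labelled colon on the vertical axis. Red points are the 140 measured mRNAs of the kidney lists, blue points the 28 of the colon and small intestine lists and black points Defb1 and Rida. The solid line is equality and the broken lines a difference of 2 or -2: 100 red points lie above the upper line and 22 blue points below the lower one.

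The 4 mRNAs used as markers of this library (Umod, Slc34a1, Kap and Rida) were picked with their peak in it known, so their levels are a description. They were at between 22.8 (Rida) and 116 (Kap) times the next library. Umod, which encodes uromodulin and marks the thick ascending limb, had 16438 RPKM here, 449 in the library labelled brain, 56.7 in lung, 10.9 in kidney, 8.82 in heart and 8.01 in small intestine. Its ratio to the next highest library was 36.6 (95% interval 35.9 to 37.4), and its gene is at chr7:119061934-119078505 (GRCm39, minus strand). The density of Umod labelled colon thus stood far above that labelled kidney. Slc34a1 encodes the main sodium-phosphate cotransporter of the proximal brush border and had 1361 RPKM here, 26.8 in brain, 5.62 in lung, 4.38 in small intestine, 4.00 in kidney and 2.24 in heart. Kap, an androgen-regulated mRNA of the proximal tubule, had 1159 RPKM here, 9.98 in lung, 9.58 in brain, 2.16 in small intestine, 0.727 in kidney and 0.673 in heart. Rida encodes an enzyme of liver and kidney that removes reactive imines made in amino acid breakdown. It had 30574 RPKM here, 1342 in brain, 582 in small intestine, 342 in kidney, 329.6 in lung and 156 in heart, so it was well above 0 in all 6 libraries and highest here. Rida and Umod were exceeded in this library only by Kri1, a nucleolar protein of ribosome assembly, at 32083 RPKM, and Kri1 was higher still in the libraries labelled kidney (104584) and small intestine (66762). Kri1 took 6.79% of the reads here, 1677405 of 7583374 labelled kidney and 1079438 of 7644645 labelled small intestine. Such shares lower the RPKM of all other mRNAs in those libraries.

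Among the 10 mRNAs of highest density here were 3 more that were counted as higher. Gpx3, the glutathione peroxidase that the proximal tubule secretes into plasma, had 10365 RPKM here and between 9.65 and 501 elsewhere. Klk1, tissue kallikrein of the connecting tubule and of glands, had 13509.8 RPKM here but 17498 in the library labelled kidney and 3366 in brain. It is therefore counted as higher than the mean of the others without being highest of the 6. Cox8a, a subunit of cytochrome oxidase, had 7777 RPKM here and between 508 and 2535 elsewhere. The remaining 4 were mt-Atp6, mt-Nd6, Ptms and Ptma, with differences between -0.22 and 1.27.

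The 30 mRNAs with the largest difference, from 7.41 (Ttc36) to 9.63 (Defb1), covered several nephron segments. Defb1, an antimicrobial beta-defensin of the distal nephron, had 943 RPKM here and at most 0.637 elsewhere. Fxyd2, the gamma subunit that tunes the sodium pump in tubule cells, had 2008 RPKM here, 35.8 in brain and at most 1.35 in the other four. Gas2, a cytoskeletal protein, had between 0.137 and 55.2 RPKM elsewhere against 3207 here. Fxyd2 and Gas2 thus had similar ratios to the library labelled brain (56.2 and 58.1), whereas Defb1 had little density in any other. Enzymes among the 30 include Keg1, Cyp2j5 and Miox. Keg1, of the glycine acyltransferase family, had 1649 RPKM, Cyp2j5, a fatty acid epoxygenase, 1389 RPKM, and Miox, the first enzyme of inositol breakdown, 1189 RPKM. Slc27a2, a fatty acid transporter and acyl-CoA synthetase, had 1877 RPKM, and Apom, the apolipoprotein of lipoprotein particles made in liver and kidney, 655 RPKM. Rdh16, a retinol dehydrogenase, had 807 RPKM and Aldh8a1, an aldehyde dehydrogenase of tryptophan breakdown, 421 RPKM. Members of near-identical families (Keg1, Acsm2, Cyp2j5, Rdh16, Serpina1f, Defb1) are uncertain to the extent that reads shared with their copies were left out before counting.

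The second highest library was not spread evenly over these 30. For 20 of them it was the library labelled brain, for 5 that labelled lung, for 2 each those labelled kidney and small intestine, and Atp6v1g3 had no reads outside the library labelled colon. As a median over the 30, the density labelled brain was 1.86% of that labelled colon, against 0.127% for kidney, 0.0693% for small intestine, 0.0655% for lung and 0.0610% for heart. Leaving the library labelled brain out of the mean raised the median difference of the 30 from 7.81 to 8.46, and none of them fell below 7.44. What the level in the library labelled brain stems from was not tested.

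**Figure D2:**
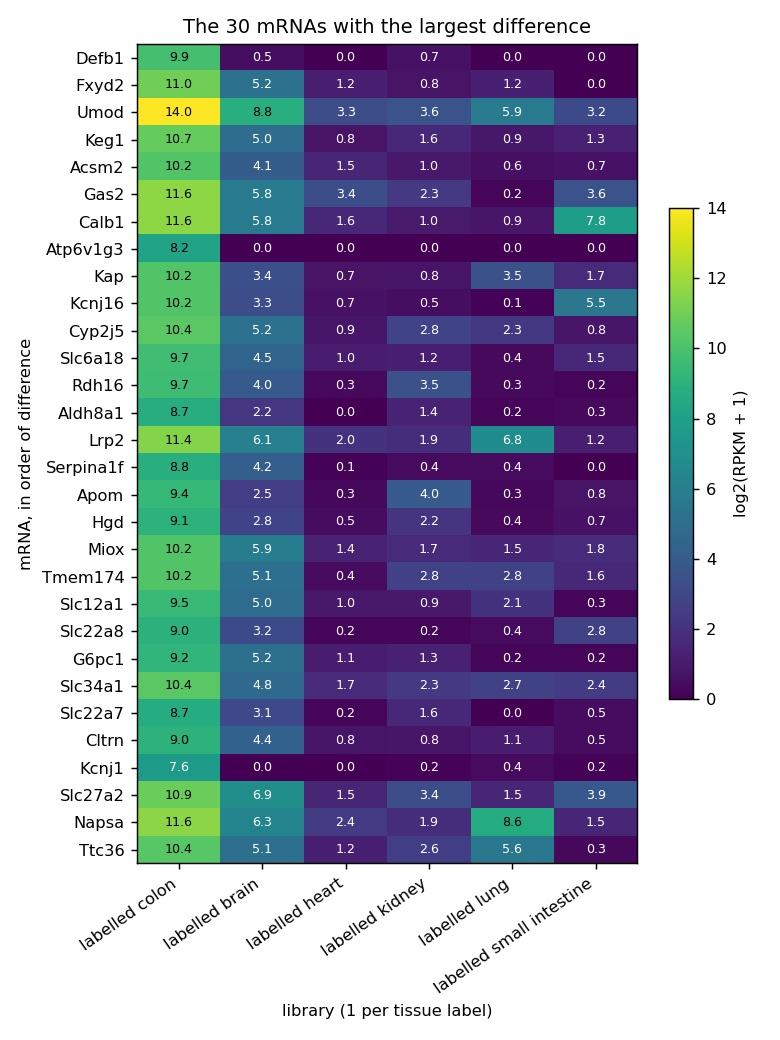
Each cell gives log2(RPKM + 1) of 1 of the 30 mRNAs with the largest difference (rows, in order of difference) in 1 of the 6 libraries (columns). The column labelled colon is the highest in every row, and the column labelled brain is the next highest in 20 of the 30 rows.

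Lists of mRNAs known from kidney cell types held 144 mRNAs in all, of which 143 are in the tables and 140 reached 1 RPKM in a library. Of these 140, 100 were counted as higher and 2 as lower, beside 7.78% and 6.37% of all mRNAs, and 85 were highest of the 6 beside 15.3% of all. Their median difference was 3.21. Their reads made up 11.7% of the library labelled colon, 3.32% in brain, 1.78% in kidney, 0.741% in lung, 0.243% in heart and 0.265% in small intestine. The lists were chosen with earlier results of these data known, so these counts are a description. Umod and Slc34a1, picked with their peak here known, are among the 140. Many members passed the filter only through this library, such as Foxi1, Pax8, Atp6v1g3, Slc7a13, Emx2, Kcnj1, Aqp2, Atp6v1b1, Pax2 and Sim1. The counts of 140 and 100 thus include mRNAs that entered only by reaching 1 RPKM here. In whole tissue, fewer cells of a type, less mRNA per cell and fewer ribosomes per mRNA cannot be told apart. The values below therefore do not give the number of cells of a segment.

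Podocyte mRNAs, which build the filtration slit of the glomerulus, were the least marked group. Only 2 of 13 were counted as higher and 2 as lower. Nphs1 (nephrin), the main protein of the slit, was among the higher and had 7.66 RPKM from 130 reads here and at most 0.174 elsewhere. The median difference of all 13 was -0.36, and 2 of the 13 had no reads here. Some members are proteins that many other cells use, and whether this bears on the count was not tested. Podxl, a sialomucin shared with endothelium, had 129 RPKM here and 323 in lung, and Synpo was counted as lower at a difference of -2.21. Wt1, a transcription factor of podocytes, had no reads here, where 3 reads would have given 0.429 RPKM.

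Of the transporters of the proximal tubule, 25 of 26 were counted as higher and 21 were highest of the 6, with a median difference of 5.13. Among carriers of organic anions, Slc22a8 (OAT3) had 503 RPKM here, 7.94 in brain, 5.85 in small intestine and at most 0.321 elsewhere. Slc22a6 (OAT1), on the same basolateral membrane, had 70.2 RPKM here and at most 1.04 elsewhere. Both stood apart from every other library, the first at 63.3 times the next (95% interval 53.3 to 75.7) and the second at 67.5 times (39.1 to 128). Of the glucose carriers, Slc5a2 (SGLT2), the sodium-glucose cotransporter of the early proximal tubule, had 209 RPKM here, 8.94 in brain and at most 0.451 elsewhere. Slc2a2 (GLUT2), the exit route for glucose, had 75.7 RPKM here and 17.6 in brain. For bicarbonate and dicarboxylates, Slc4a4 had 701 RPKM here and 114 in small intestine, and Slc13a3 had 767 here and 70.2 in small intestine.

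The 5 proximal transporters that were not highest here are ones that the intestine is also known to use. Slc6a19, the main neutral amino acid transporter of both brush borders, had 149 RPKM here and 345 in brain. Slc7a9, a subunit of the cystine transporter, had 35.7 here and 113 in brain, and Slc13a1, the sulfate transporter, 136 here and 395 in brain. Slc9a3, the sodium-proton exchanger of apical membranes, had 18.8 here and 32.1 in kidney. Slc7a7, the member below a difference of 2, had 10.01 here and 14.0 in brain, a difference of 1.89. These libraries labelled brain and kidney are also those with the highest summed density of the gut lists described below. Slc3a1, the partner of Slc7a9, was still higher here (779.8 RPKM) than in brain (345).

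In the straight part of the proximal tubule, 5 of 7 mRNAs were counted as higher. Slc6a18, a neutral amino acid transporter, had 848 RPKM here, 21.97 in brain and at most 1.91 elsewhere, and Slc22a7 (OAT2) had 408 here and at most 7.37 elsewhere. Slc7a13, the aspartate, glutamate and cystine transporter of the last part, had 12.4 RPKM from 80 reads here and none elsewhere, at least 44.9-fold higher than the level that 3 reads would give in the other library where that level is highest. Slc5a1 (SGLT1), which the small intestine shares, had 79.1 RPKM here and 657 in brain. Cyp7b1 had no reads here.

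The uptake of filtered proteins was led by Lrp2 (megalin), the large endocytic receptor of the proximal tubule, with 172017 reads and 2731 RPKM here, 112 in lung, 68.1 in brain and at most 3.13 elsewhere. No mRNA but Kri1 had more reads in this library. Its co-receptor Cubn (cubilin), which the ileum uses for cobalamin, had 154 RPKM here and 269 in brain, and Amn, which anchors cubilin, 96.1 and 74.4. Megalin and cubilin thus ordered the libraries labelled colon and brain in opposite ways. Dab2, the adaptor of megalin, had 168 RPKM here and at most 24.9 elsewhere, and Cltrn (collectrin), which carries amino acid transporters to the membrane, 525 here and at most 19.5 elsewhere. Clcn5, Ctns and Ap1m2, proteins of endosomes, lysosomes and sorting, had differences of 1.00, 0.46 and -0.36.

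Peptidases of the brush border were mixed, with 5 of 10 counted as higher and 2 highest of the 6. Ggt1, which breaks down glutathione in the filtrate, had 165 RPKM here, 77.8 in brain and at most 2.71 elsewhere. Mep1a and Mep1b, the meprin subunits, had 218 and 105 RPKM here but 519 and 631 in brain. Anpep and Enpep, aminopeptidases of kidney and gut, reached 3690.5 and 679 RPKM in brain against 133 and 23.1 here. The summed density of this list was 6807 RPKM in the library labelled brain and 967 in that labelled colon.

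**Figure D3:**
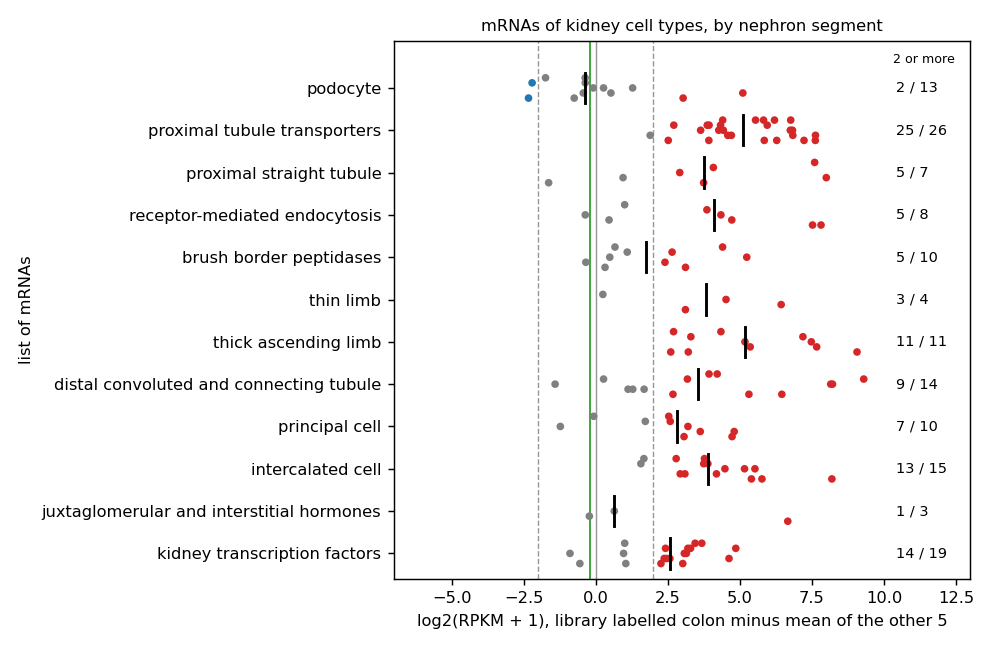
Each point is an mRNA of a list of kidney cell types (rows), placed by the difference of log2(RPKM + 1) between the library labelled colon and the mean of the other 5 (red at 2 or more, blue at -2 or less, grey between). Black bars are list medians, the green line is the median of all mRNAs (-0.19), and the figures at the right give how many of the measured members reached 2: 25 of 26 for proximal tubule transporters and 2 of 13 for podocytes.

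In the loop of Henle, the thin limb list had 3 of 4 counted as higher. Slc14a2, the urea transporter that helps to build the osmotic gradient, had 114 RPKM here and at most 1.82 elsewhere. Aqp1, a water channel that lung capillaries share, had 610.4 RPKM here and 479 in lung.

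In the thick ascending limb, 11 of 12 mRNAs were counted as higher, and Cldn14, the remaining one, had no reads in any library. Slc12a1 (NKCC2), the salt cotransporter that loop diuretics block, had 724 RPKM here, 30.1 in brain, 3.16 in lung and less than 1 in the other three. Kcnj1 (ROMK), the potassium channel that recycles potassium for it, had 196 RPKM from 1039 reads here and at most 0.330 elsewhere, a ratio of 594 with a wide counting interval (203 to 2887). Bsnd (barttin), needed for the exit of chloride, had 77.9 RPKM here and at most 4.08 elsewhere. Egf, a growth factor and magnesium regulator made along this limb and the distal tubule, had 895 RPKM here and at most 32.1 elsewhere. Casr, the calcium-sensing receptor, had 16.3 RPKM here and at most 1.89 elsewhere. The claudins that let calcium and magnesium pass were low, Cldn16 with 18 reads and Cldn19 with 16. Cldn10, the sodium-selective claudin, had 22.1 RPKM here and 24.0 in small intestine.

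For the distal convoluted and connecting tubule, 9 of 14 mRNAs were counted as higher. Slc12a3 (NCC), the salt cotransporter that thiazides block, had 149 RPKM here, 3.66 in brain and at most 1.05 elsewhere. The calcium route of these cells was represented by Trpv5, the entry channel, at 9.01 RPKM from 88 reads, by Calb1, the cytosolic calcium buffer, at 3169.6, and by S100g, another calcium buffer, at 512. Calb1 was also present in the library labelled small intestine (227 RPKM), and S100g in those labelled kidney (132) and brain (124), while Trpv5 reached at most 0.547 elsewhere. Kcnj16, a basolateral potassium channel subunit, had 1161 RPKM here, and its partner Kcnj10 25.8 here against 173 in small intestine. Wnk4 and Klhl3, which regulate NCC, were counted as higher (3.93 and 2.68), and the more broadly used Wnk1 had a difference of 0.27. Trpm6, the magnesium channel, had 0.693 RPKM here and 11.2 in kidney, and Pvalb had 9 reads here.

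In the collecting duct, principal cells had 7 of 10 listed mRNAs counted as higher, at modest density. Aqp2, the vasopressin-regulated water channel, had 27.9 RPKM from 102 reads here and at most 0.318 elsewhere, and Aqp3, the basolateral exit, 113 here and 41.2 in brain. The subunits of the epithelial sodium channel were shared with the library labelled lung, where Scnn1a, Scnn1b and Scnn1g had 74.4, 20.7 and 307 RPKM against 35.2, 15.5 and 34.8 here. Hsd11b2, which protects the mineralocorticoid receptor from glucocorticoids, had 26.6 RPKM here and 22.7 in the library labelled kidney, with intervals of the ratio that include 1 (0.940 to 1.47). Fxyd4 had 11 reads here and 7.55 RPKM in kidney against 8.22 here. Aqp4, a basolateral water channel that glia share, had 31.4 RPKM here, 403 in kidney and 163 in small intestine. The summed density of the list was 317 RPKM here, below that labelled kidney (485) and lung (457). The sodium channel subunits, Aqp4, Hsd11b2 and Fxyd4 thus had a similar or higher density in at least 1 other library.

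Intercalated cells, which secrete acid or base, had 13 of 16 mRNAs counted as higher and 14 highest of the 6. Foxi1, the transcription factor that specifies them, had 34.8 RPKM from 175 reads here and none elsewhere, at least 98.2-fold higher. Atp6v1g3, a proton pump subunit of these cells, had 292 RPKM here and no reads elsewhere, at least 261-fold higher, and Atp6v1b1, another such subunit, 47.2 here and at most 0.159 elsewhere. Over the whole Atp6v family, which includes the pump subunits of all cells, 6 of 21 mRNAs were counted as higher. Slc26a4 (pendrin), the chloride-bicarbonate exchanger of base-secreting cells, had 114 RPKM here and at most 8.20 elsewhere. Slc4a1, the exchanger of acid-secreting cells that red cells share, had 38.6 here and 23.3 in lung. Rhcg, an ammonia channel, had 58.5 RPKM here and at most 0.173 elsewhere, and its relative Rhbg 5.53 here and 15.3 in brain. Slc26a4, of base-secreting cells, was thus highest here. The marker named for acid-secreting cells, Slc4a1, is shared with red cells, so its level alone does not show those cells.

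Of the kidney's hormone mRNAs, Ren1, renin of the juxtaglomerular cells, had 115 RPKM from 624 reads here, 0.608 in heart, 0.215 in lung and none in the other three, a ratio of 189 (95% interval 86.3 to 517). Epo had no reads here, where 3 reads would have given 1.16 RPKM, and Agtr1a had 19 reads. In the list of the renin-angiotensin system, Ren1 was the only one of 8 mRNAs counted as higher. Ace had 37.1 RPKM here and 192 in lung, and Agt 89.2 here and 203 in small intestine.

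Transcription factors known from kidney tubules had 14 of 20 mRNAs counted as higher. Pax8 and Pax2, which specify the renal lineage, had 11.8 and 8.36 RPKM here. Pax8 had no reads elsewhere, at least 41.0-fold higher, and Pax2 at most 0.105 RPKM. Sim1, which marks the nephron's middle segments during its formation, had 28.3 RPKM here and at most 0.0570 elsewhere, and Tfap2b of the distal tubule 8.38 here and at most 0.570. Hnf4a, of proximal tubule, liver and gut, had 85.4 RPKM here, 134 in brain and 72.4 in kidney. Irx1 and Irx3, which pattern the nephron, had 22.7 and 54.1 RPKM here and 30.5 and 59.8 in lung. Pax8, Pax2, Sim1 and Tfap2b were thus highest here, and Hnf4a, Irx1 and Irx3 were not. Emx2 had 13 reads here and none elsewhere, and Lhx1, a factor of the embryonic nephron, had none here.

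Hox mRNAs, which record the position of a tissue along the body axis, were also counted, by the prefix of their symbol. Of the 28 that reached 1 RPKM in a library, 13 were counted as higher and none as lower, beside 7.78% and 6.37% of all mRNAs. These counts are a description, since members such as Hoxc10, Hoxd9 and Hoxd10 reached 1 RPKM only here. A count as lower was open only to Hoxb9, whose mean log2(RPKM + 1) over the other libraries was 3.03. Hoxb9 had 186 RPKM here, 99.2 in brain, 92.1 in kidney, 2.97 in small intestine and none in heart and lung. Hoxc10 and Hoxd10 had 26.2 and 11.5 RPKM here, no reads in the libraries labelled brain and kidney, and at most 0.898 RPKM elsewhere. Hoxa13, of the hindgut and its outlet, had no reads here and 12.3 RPKM in the library labelled kidney, and Hoxb13 3.88 here and 13.5 there. Hoxa5 and Hoxb4 had no reads here or only a few (0 and 0.592 RPKM) and 9.58 and 12.2 RPKM in lung. The next highest here after Hoxb9 were Hoxb6 (74.7 RPKM), Hoxa7 (34.9) and Hoxb8 (31.1). The measured members numbered 13 (Hoxa13, Hoxb13 and Hoxd13), which act at the hind end of the body, were thus all higher in the library labelled kidney than here.

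Since Hnf4a was present at this density, promoters were searched for the letters CAAAGTCCA of the HNF4 site on both strands, from 250 bases before to 50 bases after the transcript start in GRCm39. They occurred in 9 of 1184 promoters of mRNAs counted as higher (0.760%), in 4 of 265 with a difference of 4 or more (1.51%), in 1.34% of those counted as lower and in 0.502% of all 15136 searched. The share was thus larger in the mRNAs counted as lower than in those counted as higher. The letters TCAAGGTCA of the estrogen-related receptor site occurred in 0.169% of the higher and 0.390% of all. The HNF4 letters with 20 bases on each side are shown for the 3 of the 4 mRNAs with a difference of 4 or more whose window lies wholly before the start, to let the shared core be compared, and Erich4 is named for its match after its values were seen. Each is printed in the direction of its gene with the 9 matching letters in capitals, which read CAAAGTCCA or its reverse complement TGGACTTTG:
Erich4 (GRCm39 chr7:25315350-25315398, minus strand): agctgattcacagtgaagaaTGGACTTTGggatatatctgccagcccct
Slc3a1 (GRCm39 chr17:85335716-85335764, plus strand): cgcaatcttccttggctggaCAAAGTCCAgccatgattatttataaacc
Treh (GRCm39 chr9:44584439-44584487, plus strand): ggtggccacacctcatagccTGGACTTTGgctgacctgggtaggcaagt
Slc3a1, the partner of Slc7a9 described above, had a difference of 5.54 and its match began 68 bases before the start. Treh, the trehalase of kidney and gut brush borders, had a difference of 4.40, and its density was 97.5 RPKM here and 299 in brain. Erich4 had 589.8 RPKM here. A match is a description of letters and not of binding, and none of the promoters of Umod, Kap, Slc34a1 and Rida held either motif.

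The metabolic mRNAs of the proximal tubule were counted in further lists. In amino acid catabolism, which kidney shares with liver, 24 of 26 mRNAs were counted as higher and 25 were highest of the 6. Gatm, which makes guanidinoacetate for creatine in the kidney, had 1598 RPKM here, 73.9 in brain and at most 16.4 elsewhere. The breakdown of tyrosine was covered by Hpd (126 RPKM), Hgd (534), Gstz1 (120.2) and Fah (73.1), all highest here. Hpd was the closest to another library, with 83.1 RPKM in that labelled kidney. Dao, the peroxisomal oxidase of D-amino acids, had 126 RPKM here and at most 4.82 elsewhere. Bhmt, a betaine-dependent methyltransferase of liver, had no reads here.

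Gluconeogenesis and fructose metabolism was, beside a list of only 3, the one in which every mRNA (9 of 9) was counted as higher and highest of the 6. Pck1, the committed step of gluconeogenesis, had 2349 RPKM here, 93.9 in kidney, 72.5 in lung, 60.9 in brain, 11.3 in heart and 2.73 in small intestine. G6pc1, the last step, had 589 here, 35.3 in brain and at most 1.48 elsewhere. The fructose enzymes stood closer to the library labelled brain, with Khk at 1669.5 here and 1389 there and Tkfc at 197 and 172.

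Acyl-CoA and glycine conjugation, which detoxifies medium-chain and aromatic acids, had 5 of 6 counted as higher. Acsm2 had 1156 RPKM here, 16.2 in brain and at most 1.83 elsewhere, while its relative Acsm3 had 4.40 here and 12.2 in kidney. Glyat, the glycine acyltransferase of mitochondria, had 91.2 here and 95.9 in brain, unlike Keg1.

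For the oxidation of fatty acids, fewer mRNAs reached a difference of 2 in the mitochondrial list than in the peroxisomal list. In the mitochondrial list 2 of 13 were counted as higher, and 10 of the 13 had their highest density in the library labelled heart. The differences of the 13 ran from 0.08 to 3.44. Acadm, medium-chain acyl-CoA dehydrogenase, had 3527 RPKM here and 2423 in heart, and Cpt1a, the liver and kidney form of the carnitine step, 261 here and at most 90.5 elsewhere. In the peroxisomal list 7 of 10 were counted as higher, and its summed density was 2135 RPKM here and 2243 in heart. Cat (catalase) had 631 RPKM here and at most 233 elsewhere, and Ehhadh, the bifunctional enzyme, 232 here and at most 44.6. Hao2, a hydroxyacid oxidase of kidney peroxisomes, had 167 here and 98.4 in the library labelled kidney.

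Glutathione and peroxide metabolism had 10 of 11 mRNAs counted as higher, Gpx3 among them. Gclc, Gclm and Gss, which make glutathione, had 270.3, 201 and 94.1 RPKM here, each above every other library. Gpx4, which protects membranes, had 43.3 here and 88.2 in heart and was the exception. In the inositol and glucuronate list, Miox, Akr1a1 and Dcxr were counted as higher (7.76, 3.00 and 3.21), and Ugdh, Isyna1 and Impa1 were not. The higher members include Miox, which starts inositol breakdown, and Isyna1, which makes inositol, had 9.03 RPKM here and 7.73 in kidney.

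Smaller lists were less uniform. In ammonia metabolism 2 of 6 were counted as higher. In osmolyte accumulation 3 of 6 were counted as higher, with Akr1b1, aldose reductase of the medulla, at 148 RPKM here and 137 in heart, and Slc6a12, the betaine transporter, without reads. For vitamin D, Cyp24a1, which inactivates the hormone, had 10.9 RPKM from 76 reads and was counted as higher, while Cyp27b1, which activates it, had 6.28 here and 17.3 in kidney. Of the urate list, Slc22a12 (URAT1), the urate reabsorber, had 129.7 RPKM here and at most 1.10 elsewhere, and Abcg2, an exporter shared with the gut, 193 here and 158 in brain. Uox, urate oxidase of liver, had no reads here.

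Some kidney mRNAs are known to depend on sex hormones, and the labels do not give the sex of the mice. Kap, androgen-induced in adult males, was the only one of 8 mRNAs of the male-biased list counted as higher, beside 7.78% of all mRNAs. Kap was picked as a marker with its peak here known, so its count is a description. Slco1a1 had 1 read here, Cyp4a12b, Cyp2j13 and Cyp7b1 none, and Cyp4a12a was not in the tables. Acsm3 had 37 reads here. In the same male-biased list 2 mRNAs were highest of the 6, Kap among them, beside 15.3% of all mRNAs. All 3 of the female-biased list were counted as higher, with Cyp4a14 at 86.3 RPKM here and at most 4.93 elsewhere, Prlr at 52.9 and at most 17.6, and Slc7a12 at 17.3 and at most 0.278. Of the 4 Y-linked mRNAs, Ddx3y had 1 read here and Eif2s3y, Kdm5d and Uty none. Y-linked reads were also scarce in the other libraries, the highest being Kdm5d at 2.87 RPKM in that labelled kidney. What these values say about the sex of the mice was not tested.

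**Figure D4:**
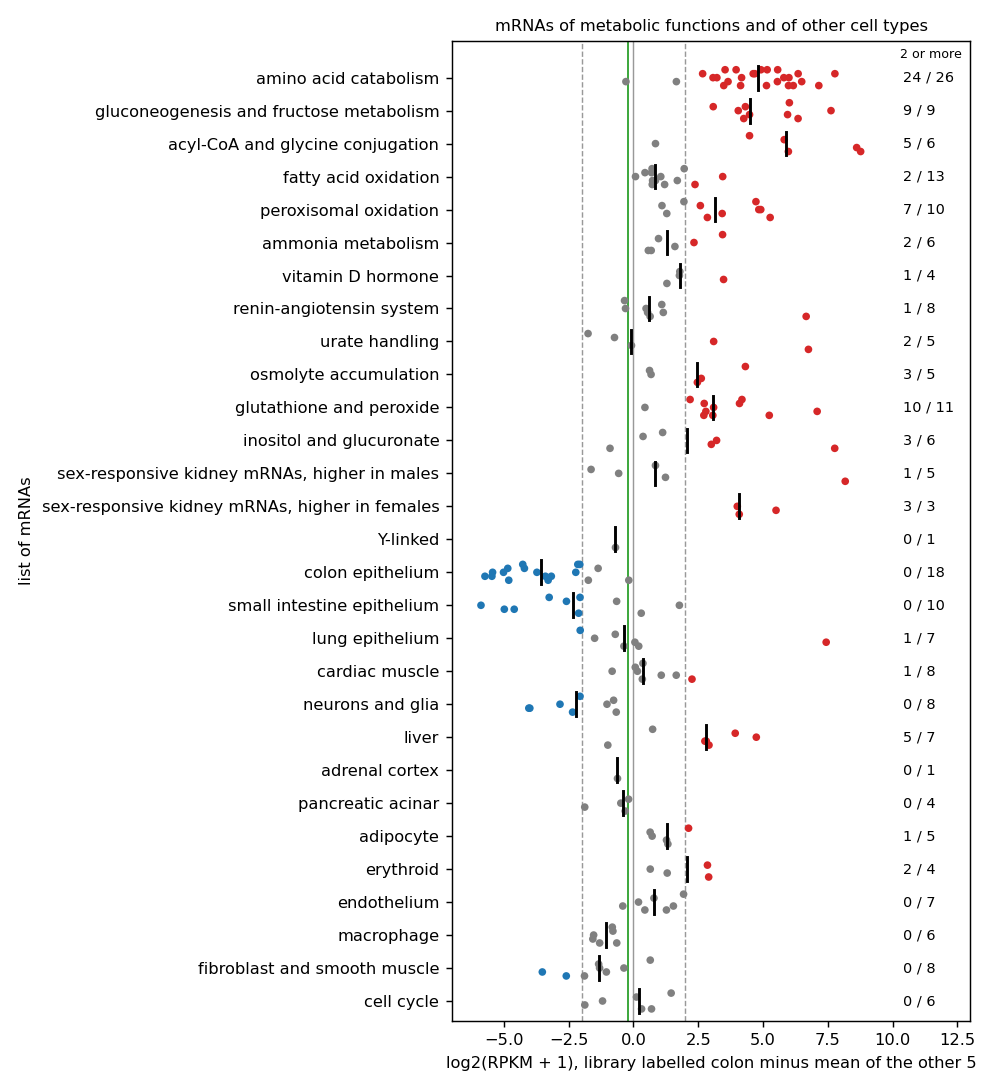
Points, colours, bars and lines are as in the plot of kidney lists, here for lists of metabolic functions and of other cell types. All 9 measured mRNAs of gluconeogenesis and fructose metabolism lie at 2 or more, and none of the colon epithelium list does.

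Lists of other cell types were read in the same way. For the gut, 22 of 28 mRNAs of the colon and small intestine lists were counted as lower beside 6.37% of all, none was counted as higher, and they held 1041 reads, or 0.0231% of the library. Their summed density was 34.3 RPKM for the colon list and 219.7 for the small intestine list. The colon list reached 27242 RPKM in the library labelled kidney, 20433 in brain and between 69.7 and 388 in the other three. The library labelled colon was thus the lowest of the 6 on the colon list. Clca1, a goblet cell product, had 6.73 RPKM here, 9861 in kidney, 3237 in brain, 64.0 in heart, 47.7 in lung and 39.9 in small intestine. Krt20, a keratin of mature enterocytes, had 2.06 here, 10346 in brain and 1870.0 in kidney. The small intestine list was highest in the library labelled brain, at 60330.3 RPKM. Fabp1, Apoa4 and Mttp, which bind or carry lipid, were not counted as lower, and Fabp1 had 125 RPKM here. In the colon list Cdx1 and Retnlb were among the 3 that were not, and Cdx1 had no reads here.

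Cardiac muscle mRNAs were low but present. They had a summed density of 843 RPKM here against 142860 in the library labelled heart, 1165 in lung and between 29.0 and 152 in the other three. Mb (myoglobin) had 315 RPKM from 656 reads here and 62856 in heart. None of the 8 was at 0, and Actc1 was the only one counted as higher (2.26). Lung epithelial mRNAs other than Napsa were likewise far below the library labelled lung, with Sftpc at 119.6 RPKM here and 39332 there. Napsa, an aspartic protease of lung and proximal tubule, had 3049 RPKM here and 387 in lung, the reverse order. Whether these low levels come from the tissue or from other libraries was not tested.

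Of the liver list, 5 of 7 were counted as higher, of which Fga and Fgb were highest of the 6. Alb had 375 RPKM here and 633 in the library labelled kidney, Ttr 654 here and 1819 in small intestine, and Fgb 63.1 here and 30.0 in kidney. Serpina1b, of liver, had no reads here. Neuronal and glial mRNAs had 5 of 8 counted as lower, Gfap at 0 and 15.2 RPKM in sum. The listed adrenal cortex mRNAs (Star, Cyp11a1, Cyp11b1, Cyp21a1 and Hsd3b1) had no reads here and at most 2.95 RPKM in any library, and pancreatic acinar mRNAs had 1 in all. Among adipocyte mRNAs, Fabp4 was counted as higher (104 RPKM here, 291 in heart), and Adipoq had 28.2 RPKM. Endothelial mRNAs (0 of 7) and macrophage mRNAs (0 of 6) were neither counted as higher nor as lower, and Cd68 had no reads. Their median differences were 0.79 for the endothelial and -1.06 for the macrophage list. The summed density of the macrophage list, 64.9 RPKM here, was the lowest of the 6 libraries. Of the fibroblast and smooth muscle list 2 of 8 were counted as lower and none as higher. Alas2 and Hba-a1 of red cell precursors were counted as higher (42.1 and 18.8 RPKM), and both were higher still in the library labelled lung (75.4 and 34.9). None of 6 cell cycle mRNAs was counted in either direction.

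**Figure D5:**
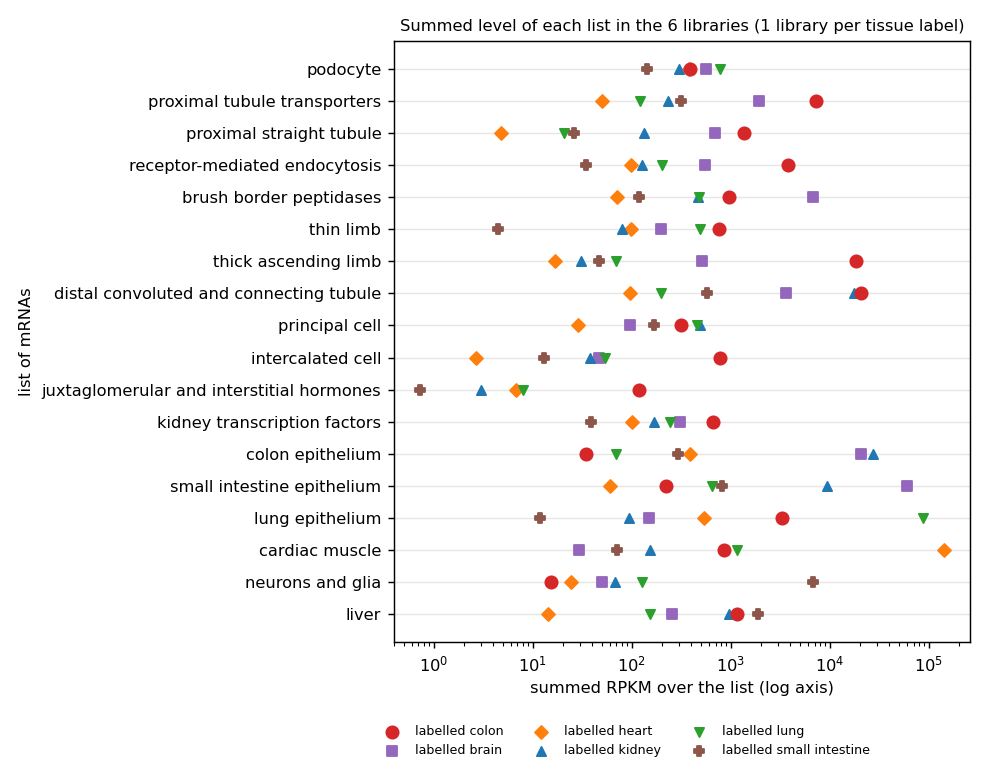
Summed RPKM of each list (rows) in each of the 6 libraries (symbols), on a log axis. The library labelled colon (large red circles) is the highest for 9 of the 12 kidney lists and among the lists plotted, the lowest for the colon epithelium and the neurons and glia.

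The 15 mRNAs with the lowest difference include several known from gut epithelium. Fabp6, the bile acid binder of the ileum, had 2 reads here and 26087 RPKM in brain, and Muc13, a membrane mucin, 2.71 RPKM here, 8294 in brain and 5230.2 in kidney. Chga and Chgb, the granins of neuroendocrine granules, had 0.639 and 1.97 RPKM here and 1268 and 4567 in small intestine. A different set had no reads here and moderate density in every other library, of which Rap2c, a small GTPase, was the most extreme. Its density was 0 here and 231 RPKM in brain, 97.7 in heart, 70.7 in lung, 69.1 in small intestine and 49.2 in kidney. In the library labelled colon, 11 mRNAs had no reads and at least 5 RPKM in each other library, and Rap2c, 1500009L16Rik, Coa5 and Rnf141 were among them. Each other library had such mRNAs too, 86 labelled brain, 56 lung, 7 small intestine, 3 kidney and 1 heart. Why these are at 0 was not tested.

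By gene family, 80 of 341 Slc mRNAs were counted as higher (23.5%, beside 7.78% of all) and 21 as lower. Within them the Slc22 family of organic ion carriers had 13 of 17, Slc16 (monocarboxylates) 8 of 13 and Slc5 (sodium-coupled sugar and other solutes) 7 of 12, against 5 of 41 for the mitochondrial Slc25 family and 1 of 27 for the nucleotide sugar family Slc35. Aldo-keto reductases (Akr) had 8 of 15, glutathione transferases (Gst) 8 of 21, cytochrome mono-oxygenases (Cyp) 13 of 64 and aquaporins (Aqp) 4 of 10. The prefix Cldn had 6 of 16, which are claudins and Cldnd1, a member by prefix only that was not counted as higher. The median difference of all Slc mRNAs was 0.20, and that of the Cyp mRNAs -0.37, so in both a minority carried the count. ABC transporters had 5 of 44 and kallikreins (Klk) 1 of 7.

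Of the 1185 mRNAs counted as higher, 269 lay in 119 runs of 2 or more neighbours on a chromosome among the mRNAs that passed the filter. With 7.78% of all mRNAs counted as higher some neighbours are bound to occur, and whether there are more of them than that was not tested. The longest runs held 5. One on chromosome 19 held Slc22a19, Slc22a29, Slc22a30, Slc22a8 and Slc22a6, and one on chromosome 7 held Umod, Pdilt, Acsm5, Acsm2 and Acsm1. Runs of 4 included Hoxb9, Hoxb8, Hoxb7 and Hoxb6 on chromosome 11, Hoxd10, Hoxd9, Hoxd8 and Hoxd4 on chromosome 2 and the carboxylesterases Ces1c, Ces1d, Ces1e and Ces1f on chromosome 8. Pdilt and the carboxylesterases were named for these runs after their values were seen. Many neighbours are copies of one family, and reads that fit several copies were left out before counting.

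The CDSs of the mRNAs counted as higher were shorter than average, with a median of 1140 bases (quartiles 732 and 1656) against 1395 (873 and 2229) over all 15238. The kidney lists went the other way, at a median of 1646. The share of codons ending in G or C had a median of 61.2% (53.6 and 67.6) in the mRNAs counted as higher, 61.9% in those counted as lower and 59.8% (50.5 and 67.4) over all. The quartiles of these sets overlapped widely.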

How the data were processed

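Ribosome-protected fragments of 6 mouse tissues were prepared with cycloheximide and RNase I and sequenced as 1 library per tissue label. The authors deposited for each library a table of RPKM per mRNA, in which reads with their P-site in the CDS were divided by the CDS length and the library's total of CDS reads. The processing notes name Cutadapt, STAR and the build GRCm39, without versions, and the deposited tables are named as made after removal of rRNA reads. The study's methods, written for its macrophage libraries, state that reads were aligned to 1 mRNA per gene, the one of longest CDS, that multi-mapped reads were excluded and that P-sites were assigned by a random forest model. Whether the tissue libraries differed in any of these steps is not given in the sources used here. Excluding multi-mapped reads lowers mRNAs with near-identical copies, and RPKM is a share, so a few abundant mRNAs lower all others.

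RPKM times CDS length gave a whole number of reads for 100% of values (tolerance 0.001), and the recovered totals were between 4504853 and 10635031 reads per library. An mRNA missing from a table was set to 0. Of 18437 mRNAs, 18424 were matched to a symbol. The 15238 with at least 1 RPKM in at least 1 library entered the difference of log2(RPKM + 1) between the library labelled colon and the mean of the other 5, counted at 2 or more (fold of 4) in either direction in place of a test. Ratios to the next highest library have exact 95% binomial intervals on the reads. Where all others are at 0 the bound uses 3 reads per library. There were no molecular identifiers, so intervals cover counting error only. Named mRNAs were the 4 markers, the 10 of highest RPKM, the 30 highest and 15 lowest differences, Kri1, list members and families by symbol prefix. Members and lists were chosen with earlier results of these data known. Some list members are not reported here by name, though the counts include them. A list gene that is in none of the tables counts among the members but has no value. Promoters and CDSs were read from the GRCm39 genome and its GENCODE annotation. Python 3.11.15, NumPy 2.4.6, pandas 2.3.3, SciPy 1.17.1 and matplotlib 3.10.9 were used, and the steps were tested on simulated data. Alternatives varied the pseudocount, the filter, the reference, the scaling, the depth and the libraries included.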

Additional observations from a re-analysis of the deposited data

How the results depend on the processing

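The main counts were 1185 higher, 971 lower, 2337 highest of the 6, 100 kidney list mRNAs higher and 22 gut list mRNAs lower. With a pseudocount of 0.1 RPKM 2158 were higher and 2797 lower. With a pseudocount of 10 RPKM 399 were higher and 133 lower, with 57 kidney list mRNAs and 12 gut list mRNAs. Against the highest of the other 5 libraries 347 were higher and 5944 lower, with 62 kidney list mRNAs. Median-of-ratios size factors moved the median difference from -0.19 to -0.34 and gave 923 higher and 1100 lower, with 100 and 22 of the lists. RPKM recomputed without the reads of Kri1 gave 1193 higher and 1051 lower, again with 100 and 22 of the lists. Leaving out 1 of the other libraries at a time gave 1186 to 1310 higher, 961 to 1140 lower, 2508 to 3139 highest, 99 to 103 kidney list and 17 to 23 gut list mRNAs.

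Among the named mRNAs counted as higher or lower, 23 changed sign against the highest of the other 5 libraries and none under the other settings. Named mRNAs between the thresholds were not followed for sign. These became -4.70 for Actc1, -0.83 for Alas2, -0.75 for Alb, -0.11 for Cldn10, -0.80 for Cubn, -1.47 for Fabp4, -0.072 for Glyat, -0.86 for Hba-a1, -0.64 for Hnf4a, -0.41 for Irx1 and -0.14 for Irx3. They became -0.37 for Klk1, -1.24 for Mep1a, -2.57 for Mep1b, -0.39 for Scnn1b, -3.11 for Scnn1g, -1.53 for Slc13a1, -1.21 for Slc6a19, -1.63 for Slc7a9, -0.74 for Slc9a3, -0.93 for Tat, -1.61 for Treh and -1.48 for Ttr. Each of these has a higher density in another library, which this setting takes as the reference. The 30 mRNAs with the largest difference kept differences of at least 2.98 under it. Setting values under 10 reads to 0, added after seeing the data, moved 6 named mRNAs. No paired analysis was possible because each label has 1 library. For the same reason the spread between animals is unknown, and depth limits mRNAs under a few reads in the library labelled colon, the shallowest of the 6.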
